A study of Mus musculus with 6 samples.

Results

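The 9 genes described here encode proteins of the tight junction, the seal between neighboring epithelial cells. They were chosen by name and by what their proteins do, with earlier results of these data known. Shares of all tested genes set beside counts of chosen genes are therefore descriptive only. The 9 are among the 18460 genes listed in at least 1 of 6 mouse breast tumors. The members were 6 claudins (*Cldn1*, *Cldn3*, *Cldn4*, *Cldn7*, *Cldn8* and *Cldn12*), the membrane proteins occludin (*Ocln*) and junctional adhesion molecule A (*F11r*), and the scaffold ZO-1 (*Tjp1*). All 9 passed edgeR's filter on low counts.

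RNA sequencing was done on 3 test tumors, from K14-TSLPtg;PyMTtg;Rag1KO mice, and 3 control tumors, from PyMTtg;Rag1KO mice, to ask how CD4+ T cells stimulated by thymic stromal lymphopoietin (TSLP) act on breast tumors. Mice of both groups were of the Balb/c strain, carried the polyoma middle T oncogene under the mammary tumor virus promoter, lacked their own T and B cells because of the Rag1 knockout, and were injected with CD4+ T cells at 4 wk of age. Tumors were collected at the endpoint of 18 to 20 wk, and each came from a separate mouse. The groups differed in the K14-TSLP transgene, which is driven by a promoter active in keratinocytes. *Tslp* RNA itself was scarce in the tumors, at 2, 2 and 3 counts in control replicates 1, 2 and 3 and 12, 7 and 2 counts in the test replicates, and did not pass the filter. The T cell marker *Cd3e* lay at 0.108 to 0.746 CPM (counts scaled by library size), also under the filter, whereas the epithelial keratin *Krt18* lay at 450.1 to 1679.3 CPM. *Cd4* passed the filter, at 2.2, 1.73 and 3.73 CPM in control and 1.04, 1.59 and 1.91 CPM in test replicates. Its log2 fold change was -0.75 (unadjusted p = 0.21 by edgeR).

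Depth was similar, with a total expected count of 8373390 to 9449565. Control replicate 2 stood apart from its group. Across all tested genes its log2 expression had a Pearson correlation of 0.874 and 0.908 with control replicates 1 and 3, and of 0.921, 0.927 and 0.935 with the test replicates. *Tslp* was too low in all tumors to check the group label of control replicate 2. Whether its likeness to the test tumors is biological or a matter of the label was not tested and cannot be told from these data. Every difference between the groups rests on that label as given. Without this tumor edgeR called 182 genes at a false discovery rate of 0.05, and with it 0. Because it was singled out for that likeness, leaving it out widens differences between the groups. The counts of members, some counts of lists and some fold changes are given with and without control replicate 2. The others are given with all tumors only and may also depend on it.

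Claudins span the membrane at the apical end of the lateral cell surface and pair with claudins of the next cell, and the mix of claudins sets how tight the seal is and which ions pass. Occludin and its relative tricellulin belong to the MARVEL protein family and shape the strands, JAM-A contributes to adhesion and polarity, and ZO proteins tie the strands to actin. In the mammary gland the junctions close between luminal cells when milk secretion begins, and one class of human breast tumor, called claudin-low, is known for little claudin 3, claudin 4 and claudin 7.

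*Cldn1* and *Ocln* differed most between the groups among the 9 genes. Mean levels of 7 members were higher and of 2 (*Cldn8* and *Tjp1*) lower in test tumors, beside 48.5% of all 13706 tested genes that were lower (with libraries scaled to epithelial markers, 5 of 9 against 94.8%). *Cldn1* and *Ocln* had an unadjusted p under 0.05 and were higher in test tumors, which is 2 of 9 members against 3.15% of all tested genes. No member was lower at that threshold, against 5.26% of all tested genes. The groups did not overlap for *Cldn1*, *Cldn3* and *Ocln*, all higher in test tumors, against 6.12% of tested genes in that direction. None was lower without overlap, against 5.86% of tested genes. The median log2 fold change of the members was 0.81, and that of all tested genes was 0.02.

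After adjustment over all tested genes, edgeR called no member and no other gene at a false discovery rate of 0.05 (0.0% of those tested). By that test 1153 genes had an unadjusted p under 0.05. DESeq2 called 313 genes (2.29% of the genes it adjusted), and the only member among them was *Cldn1*.

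*Cldn1*, a claudin of barrier epithelia that the epidermis needs to hold water, had the largest difference of the members. Its level was 33.7, 47.4 and 35.2 CPM in control replicates 1, 2 and 3 and 190.6, 66.0 and 307.1 CPM in test replicates 1, 2 and 3. All test tumors lay above all control tumors, with test replicate 2 far closer to the controls than the other test tumors. The mean was 187.9 ± 120.5 CPM (SD, n = 3) in test tumors against 38.7 ± 7.51 CPM (SD, n = 3) in controls. That was a 4.85-fold difference, or 2.28 on the log2 scale (standard error 0.53, unadjusted p = 0.00282, adjusted p = 0.394 by edgeR). By an exact permutation test, two-sided, the p was 0.1, the smallest p that 3 tumors against 3 allow. With DESeq2 the same log2 fold change of 2.28 had an adjusted p of 0.00308. Leaving out any 1 tumor gave log2 fold changes from 1.74 (without test replicate 3) to 2.69 (without test replicate 2).

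*Cldn1* lies on chromosome 16 of GRCm38.p6 from 26356645 to 26371839. The 250 bases before its RefSeq start (chr16:26371840-26372089, minus strand) are shown because *Cldn1* differed most. Capitals in this and the following promoters mark the GC box GGGCGG, bound by Sp1, and the E-box CACCTG, bound by Snail and Zeb repressors, each searched on both strands.
Cldn1: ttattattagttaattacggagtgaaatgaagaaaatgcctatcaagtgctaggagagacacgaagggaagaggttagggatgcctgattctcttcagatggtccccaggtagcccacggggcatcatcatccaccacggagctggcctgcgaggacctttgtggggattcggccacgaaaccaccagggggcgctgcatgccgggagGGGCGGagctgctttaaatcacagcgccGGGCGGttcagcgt
The *Cldn1* window held 2 GC boxes, at positions -42 and -14 from the start, and no E-box. Of all 32851 RefSeq promoter windows of this length, 32.7% held a GC box and 17.2% the E-box. A match describes the letters of the window only.

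**Figure D1:**
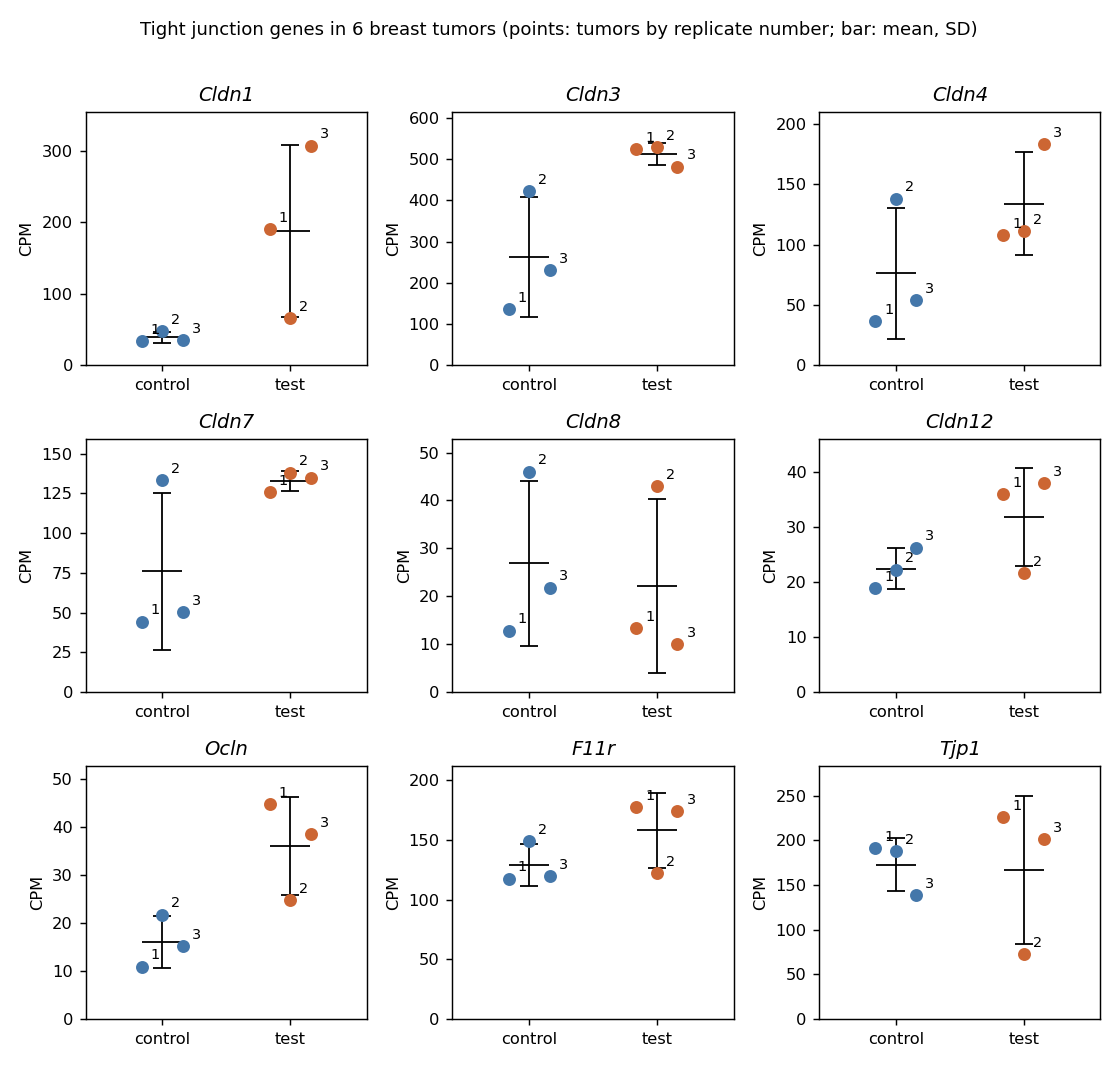
Level of each of the 9 tight junction genes in CPM (linear axis from 0) in the 3 control and 3 test tumors. Points are tumors with their replicate number, and bars give the mean and SD. *Cldn1* lies between 33.7 and 47.4 CPM in control tumors and between 66.0 and 307.1 CPM in test tumors, whereas the control tumor numbered 2 lies with the test tumors for *Cldn3*, *Cldn4* and *Cldn7*.

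*Cldn3*, *Cldn4* and *Cldn7* are sealing claudins of glandular epithelium, *Cldn3* and *Cldn4* being receptors for a clostridial enterotoxin and *Cldn7* a partner of the adhesion molecule Epcam. *Cldn3* was at 136.6, 421.9 and 229.8 CPM in control replicates 1, 2 and 3 and at 524.9, 529.1 and 481.6 CPM in the test replicates. Every test tumor was above every control tumor, but control replicate 2 was much closer to the test tumors than to control replicate 1. The log2 fold change of *Cldn3* was 0.96 (standard error 0.41, unadjusted p = 0.0502, adjusted p = 0.595 by edgeR, exact permutation p = 0.1). With DESeq2 the unadjusted p was 0.0285 and the adjusted p 0.375.

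*Cldn4* was at 36.6, 138.3 and 54.2 CPM in control replicates and 108.0, 111.0 and 183.2 CPM in test replicates 1, 2 and 3. Control replicate 2 exceeded test replicates 1 and 2. Its log2 fold change was 0.81 (standard error 0.51, unadjusted p = 0.148, adjusted p = 0.703 by edgeR). *Cldn7* was at 44.3, 133.1 and 50.1 CPM in control replicates and 125.9, 138.1 and 134.9 CPM in test replicates 1, 2 and 3. Control replicate 2 lay within the narrow range of the test tumors, and the other control tumors were below all of them. The log2 fold change of *Cldn7* was 0.81 (standard error 0.43, unadjusted p = 0.0997, adjusted p = 0.684 by edgeR).

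The spread within groups was unequal for these claudins. On the log2 scale the SD of *Cldn3* was 0.08 among test and 0.81 among control tumors, and that of *Cldn7* was 0.07 and 0.86. *Cldn4* had an SD of 0.43 among test and 0.98 among control tumors.

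Without control replicate 2 the log2 fold changes of the 3 sealing claudins were 1.48 for *Cldn3* (unadjusted p = 0.00389), 1.56 for *Cldn4* (unadjusted p = 0.00487) and 1.49 for *Cldn7* (unadjusted p = 0.000931), with edgeR adjusted p values of 0.111, 0.122 and 0.0563. In that fit 5 of the 9 members had an unadjusted p under 0.05 and were higher in test tumors, against 5.2% of all tested genes, and none was lower, against 9.06%. The members without overlap were then 6 (*F11r*, *Cldn4* and *Cldn7* in addition), against 16.2% of tested genes. There were also 6 without test replicate 2, against 11.4% of tested genes.

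**Figure D2:**
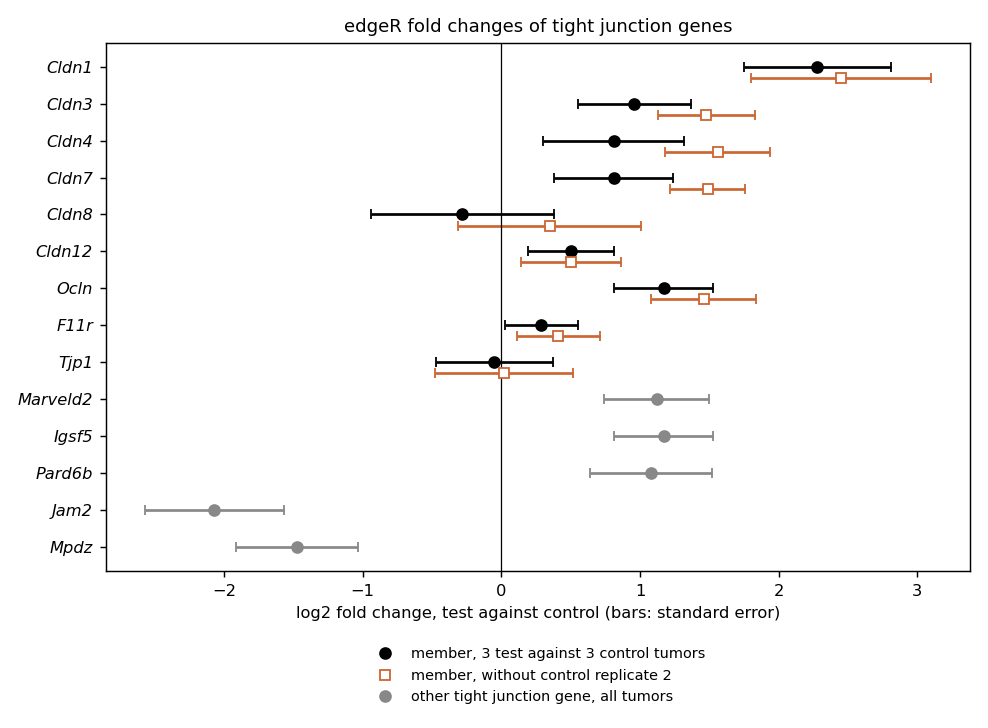
Log2 fold change of test against control tumors with its standard error from edgeR, for the 9 members with all tumors (filled circles) and without control replicate 2 (open squares), and for the 5 other tight junction genes with an unadjusted p under 0.05 (gray circles). *Cldn3*, *Cldn4* and *Cldn7* go from 0.96, 0.81 and 0.81 to 1.48, 1.56 and 1.49 when that tumor is left out, and *Jam2* and *Mpdz* lie at -2.07 and -1.47.

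*Cldn3* and *Cldn4* are neighbors on chromosome 5 of GRCm38.p6 (134986214 to 134987476 and 134945123 to 134946934), on opposite strands with 39279 bases and no other RefSeq gene between them. *Cldn7* lies apart on chromosome 11 (69964779 to 69967886). Their levels followed each other across the 6 tumors. After each gene was centered on its mean log2(CPM + 0.5), *Cldn3* and *Cldn7* differed by a root mean square of 0.2, *Cldn4* and *Cldn7* by 0.27, and *Cldn3* and *Cldn4* by 0.33. This likeness was not particular to them. *Ocln* was also at 0.33 from *Cldn3*, and *Cldn4* ranked 117 among the tested genes nearest to *Cldn3*. Their promoters are shown because the levels of the 3 genes followed each other (chr5:134985964-134986213, plus strand, chr5:134946935-134947184, minus strand, and chr11:69964529-69964778, plus strand).
Cldn3: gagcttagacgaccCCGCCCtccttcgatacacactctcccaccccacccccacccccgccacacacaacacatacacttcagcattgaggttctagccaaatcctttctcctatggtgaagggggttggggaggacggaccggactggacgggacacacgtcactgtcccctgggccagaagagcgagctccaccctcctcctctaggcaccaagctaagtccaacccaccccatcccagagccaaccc
Cldn4: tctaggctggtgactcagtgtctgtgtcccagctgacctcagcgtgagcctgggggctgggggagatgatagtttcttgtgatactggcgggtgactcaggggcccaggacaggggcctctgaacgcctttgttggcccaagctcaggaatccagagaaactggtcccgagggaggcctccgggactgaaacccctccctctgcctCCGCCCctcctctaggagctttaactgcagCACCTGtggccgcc
Cldn7: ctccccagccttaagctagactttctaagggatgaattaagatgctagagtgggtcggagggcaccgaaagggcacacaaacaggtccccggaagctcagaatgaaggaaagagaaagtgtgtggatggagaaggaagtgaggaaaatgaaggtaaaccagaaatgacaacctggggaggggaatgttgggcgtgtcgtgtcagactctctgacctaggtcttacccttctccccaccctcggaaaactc
*Cldn3* held 1 GC box at -236. *Cldn4* held 1 GC box at -44 and 1 E-box at -14. *Cldn7* held neither motif.

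*Cldn8* and *Cldn12* did not follow the sealing claudins. *Cldn8*, a claudin of kidney tubule and other tight epithelia, was at 12.8, 46.0 and 21.8 CPM in control replicates and 13.4, 43.0 and 9.97 CPM in test replicates 1, 2 and 3. Replicate 2 was the highest tumor in each group, and the groups overlapped fully. Its log2 fold change was -0.28 (standard error 0.66, unadjusted p = 0.677, adjusted p = 0.919 by edgeR), and it ran from -1.21 without test replicate 2 to 0.35 without control replicate 2. The root mean square difference of its pattern from the other 8 members was 0.93 to 1.79.

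*Cldn12*, an atypical claudin whose tail lacks the motif that binds ZO proteins, was at 18.9, 22.3 and 26.3 CPM in control replicates and 36.1, 21.6 and 38 CPM in test replicates 1, 2 and 3. Test replicate 2 lay among the control tumors and the other test tumors above them. The log2 fold change was 0.50 (standard error 0.31, unadjusted p = 0.142, adjusted p = 0.700 by edgeR), and 0.72 (unadjusted p = 0.0266) without test replicate 2.

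Occludin was the member with the next largest difference after *Cldn1*. *Ocln* was at 10.9, 21.7 and 15.2 CPM in control replicates and 44.7, 24.7 and 38.4 CPM in test replicates 1, 2 and 3. No control tumor reached the lowest test tumor, although control replicate 2 and test replicate 2 were close. The mean was 35.9 ± 10.3 CPM (SD, n = 3) in test tumors against 16 ± 5.46 CPM (SD, n = 3) in controls. The 2.25-fold difference, 1.17 on the log2 scale, had a standard error of 0.36, an unadjusted p of 0.0128 and an adjusted p of 0.456 by edgeR, with an exact permutation p of 0.1. Leaving out 1 tumor at a time gave log2 fold changes between 0.95 and 1.46, all with an unadjusted p under 0.05.

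Tricellulin (*Marveld2*), the MARVEL protein of corners where 3 cells meet, had the pattern most like *Ocln* of all tested genes, at a root mean square difference of 0.1. *Marveld2* was at 15.7, 35.3 and 20.2 CPM in control replicates and 60.8, 35.5 and 58.8 CPM in test replicates 1, 2 and 3. Control replicate 2 and test replicate 2 were almost level, and the groups did not overlap. Its log2 fold change was 1.12 (standard error 0.38, unadjusted p = 0.0195, adjusted p = 0.483 by edgeR). *Ocln* and *Marveld2* lie near each other on chromosome 13 of GRCm38.p6, from 100496504 to 100552718 and from 100595957 to 100616971, with 43238 bases and no protein-coding gene between them. Their promoters are shown because the genes are near each other and their levels were alike (chr13:100552719-100552968 and chr13:100616972-100617221, both minus strand).
Ocln: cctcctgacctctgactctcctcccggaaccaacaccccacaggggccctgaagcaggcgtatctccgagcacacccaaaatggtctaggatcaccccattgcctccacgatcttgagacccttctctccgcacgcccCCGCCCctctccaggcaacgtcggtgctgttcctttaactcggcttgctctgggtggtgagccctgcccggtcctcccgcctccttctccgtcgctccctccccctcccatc
Marveld2: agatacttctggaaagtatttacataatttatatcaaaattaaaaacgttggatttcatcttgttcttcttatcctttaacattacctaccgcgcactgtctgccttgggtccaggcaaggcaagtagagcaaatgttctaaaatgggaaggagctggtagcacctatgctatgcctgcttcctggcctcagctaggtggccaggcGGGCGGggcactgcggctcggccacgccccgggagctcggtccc
Each window held 1 GC box, at -112 for *Ocln* and at -44 for *Marveld2*, and no E-box. RefSeq windows were found for 8 of the 9 members. The GC box was in 6 of these 8, among them *Tjp1*, whose window lies inside the gene, and the E-box in 2 (*Cldn4* and *F11r*). The motif AACCNGTT, bound by Grainyhead-like factors such as Grhl1, was in none of the 8 and in 1.79% of all windows.

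*F11r*, the JAM-A gene, was at 117.6, 149.0 and 119.8 CPM in control replicates and 177.7, 121.9 and 174.0 CPM in test replicates 1, 2 and 3. Test replicate 2 lay within the control range. The log2 fold change was 0.29 (standard error 0.26, unadjusted p = 0.286, adjusted p = 0.784 by edgeR). *Tjp1*, which encodes ZO-1, was at 191.5, 188.0 and 138.3 CPM in control replicates and 226.4, 72.5 and 201.1 CPM in test replicates 1, 2 and 3. The lowest and the highest level of *Tjp1* were both in test tumors. Its log2 fold change was -0.05 (standard error 0.42, unadjusted p = 0.908, adjusted p = 0.978 by edgeR), and 0.31 without test replicate 2.

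Test replicate 2 was thus the lowest test tumor for *Cldn1*, *Cldn12*, *Ocln*, *F11r* and *Tjp1* and the highest for *Cldn8*. It was also the highest for *Cldn3* and *Cldn7*, but by small margins. The range over the 6 tumors was narrowest for *F11r*, at 0.59 on the log2 scale, and widest for *Cldn1*, at 3.17.

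Levels of different genes were compared in FPKM, which divides by gene length and depth. *Cldn3* was the highest member in each of the 6 tumors, from 102.2 to 435.2 FPKM, and *Cldn7* was above *Cldn4* in each. Over all tumors the mean was 310.9 FPKM for *Cldn3*, 82.0 for *Cldn7*, 57.9 for *Cldn4*, 57.7 for *F11r*, 34.7 for *Cldn1*, 24.0 for *Tjp1*, 10.3 for *Cldn8*, 8.12 for *Ocln* and 7.34 FPKM for *Cldn12*. Neighbors in this order below *Cldn7* changed places between tumors. *Cldn4* was above *F11r* in 3 of 6 tumors, *Cldn8* above *Ocln* in 4 and *Ocln* above *Cldn12* in 4. *Cldn1* was below *Tjp1* in all 3 control tumors and above it in all 3 test tumors in FPKM.

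Together the 20 listed claudins summed to 191.2, 602.5 and 318.9 FPKM in control replicates and 731.4, 639.0 and 717.3 FPKM in test replicates 1, 2 and 3. The test tumors lay above the control tumors, control replicate 2 being near test replicate 2 (exact permutation p = 0.1). The 6 member claudins held 90.2% to 97.1% of this sum. *Cldn3* alone held 53.5% to 63.0%, with a mean of 58.7% ± 4.78 in test and 57.1% ± 3.2 in control tumors (SD, n = 3 each). *Cldn1* held 5.02%, 2.48% and 3.47% of it in control replicates and 8.22%, 2.99% and 13.0% in test replicates 1, 2 and 3. *Cldn8* held 2.65%, 3.33% and 2.98% in control replicates and 0.798%, 2.69% and 0.584% in test replicates. For both genes the share in test replicate 2 lay within the control range, and the exact permutation p was 0.3 for *Cldn1* and 0.2 for *Cldn8*.

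**Figure D3:**
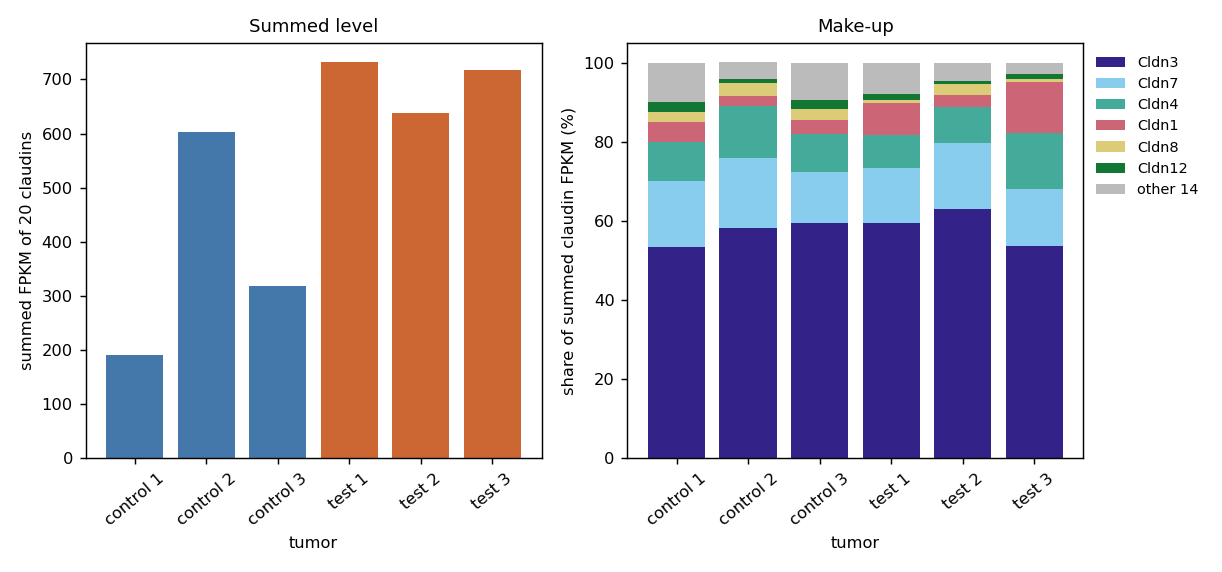
Left, summed FPKM of the 20 listed claudins in each tumor (linear axis from 0). Right, the share of that sum held by each of the 6 member claudins and by the other 14 together (%). *Cldn3* holds 53.5% to 63.0% of the sum in every tumor, while the sum itself runs from 191.2 to 731.4 FPKM.

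Besides the members, 51 further tight junction genes were looked up, of which 47 were listed and 38 passed the filter. Of these 38, the mean was higher in test tumors for 22 and lower for 16, with a median log2 fold change of 0.15. An unadjusted p under 0.05 was reached by 3 that were higher (against 3.15% of all tested genes) and 2 that were lower (against 5.26%). The 2 lower of 38 are close to the share of all tested genes. None of the 38 passed adjustment over all genes. The groups did not overlap for 3 that were higher and 2 that were lower, against 6.12% and 5.86% of all tested genes. Of the 14 other listed claudins 5 passed the filter, namely *Cldn2*, *Cldn5*, *Cldn6*, *Cldn10* and *Cldn23*, named after their values were seen. All 5 had log2 fold changes above 0, from 0.03 for *Cldn23* to 1.41 for *Cldn6*, with unadjusted p values of 0.421 to 0.941.

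The 3 higher genes were *Marveld2*, *Igsf5* and *Pard6b*. *Igsf5*, a junctional adhesion protein, was at 10.1, 20.5 and 11.1 CPM in control and 29.4, 38.8 and 25.9 CPM in test replicates (log2 fold change 1.17, standard error 0.36, unadjusted p = 0.0124). *Pard6b*, a subunit of the Par polarity complex that places the junction, was at 5.09, 12.1 and 11.6 CPM in control and 24.0, 13.1 and 24.1 CPM in test replicates (1.08 on the log2 scale, standard error 0.44, unadjusted p = 0.0391). For both genes all test tumors were above all control tumors.

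The 2 lower genes are known from endothelium and other tissues as well as from epithelium. *Jam2*, the JAM-B gene, was at 35.3, 20.0 and 53.3 CPM in control and 11.2, 10.5 and 4.24 CPM in test replicates (log2 fold change -2.07, standard error 0.50, unadjusted p = 0.00356), without overlap. *Mpdz*, a scaffold with many PDZ domains, was at 43.6, 14.9 and 42.0 CPM in control and 15.1, 9.77 and 11.4 CPM in test replicates (-1.47 on the log2 scale, standard error 0.44, unadjusted p = 0.0113). Control replicate 2 was among the test tumors for *Mpdz*, whose log2 fold change was -1.82 without it (edgeR adjusted p = 0.0476). The adjusted p of the 5 genes ran from 0.394 to 0.553 by edgeR.

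The 3 further junction genes with the highest mean FPKM were *Ybx3* (112.4 FPKM), a Y-box factor that binds ZO-1, *Lsr* (62.8 FPKM), which brings tricellulin to cell corners, and *Cgnl1* (46.9 FPKM), a plaque protein. Their log2 fold changes were 0.38, 0.53 and 0.06, with unadjusted p values of 0.289, 0.207 and 0.891 by edgeR.

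Epithelial markers had a pattern like that of the sealing claudins. All 12 markers (such as *Krt8* and *Krt18*) had higher means in test tumors. For 5 of them (*Krt8*, *Krt18*, *Krt19*, *Spint1* and *Spint2*) the unadjusted p was under 0.05 and the groups did not overlap. Of all tested genes 3.15% were higher at that threshold and 6.12% higher without overlap. Without control replicate 2, left out for its likeness to the test tumors, 11 of the 12 markers did so. The shares of all tested genes were then 5.2% and 16.2%. The summed level of the 12 was 2606.1, 5549.3 and 2371.3 CPM in control replicates and 6595.3, 6571.3 and 7146.7 CPM in test replicates 1, 2 and 3. Control replicate 2 again lay far above the other control tumors. In bulk tumor RNA, fewer cells of a type and less RNA per cell cannot be told apart.

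Relative to the mean log2 level of these 12 markers, *Cldn3*, *Cldn4* and *Cldn7* differed between test and control tumors by 0.11, 0.0 and -0.01 on the log2 scale. *Ocln* differed by 0.16 and *Cldn1* by 1.03, with ratios of -1.88, -2.58 and -1.90 in control and -0.81, -2.27 and -0.20 in test replicates for *Cldn1*. *F11r*, *Tjp1*, *Cldn12* and *Cldn8* differed by -0.72, -1.19, -0.53 and -1.37. The groups overlapped for each of the 9 ratios, and the exact permutation p ran from 0.2 to 1.0. Without control replicate 2 the differences were 0.15, 0.16 and 0.11 for *Cldn3*, *Cldn4* and *Cldn7*, 0.03 for *Ocln* and 0.80 for *Cldn1*, with overlap. They were -0.99, -1.50 and -0.91 for *F11r*, *Tjp1* and *Cldn12*, without overlap, and -1.28 for *Cldn8*. The share of all genes with such ratios lower without overlap was not computed. Scaling to these markers puts most genes below 0, as given at the end of this paragraph. Neither ratios near -1 nor their lack of overlap can therefore be read as particular to these members. When libraries were scaled to the markers before the edgeR fit, *Cldn1* kept an unadjusted p under 0.05 (log2 fold change 1.24, unadjusted p = 0.0368, adjusted p = 0.109), *Ocln* was at 0.20 (unadjusted p = 0.693), and 5 of the 9 members were lower in test tumors, against 94.8% of all tested genes. That scaling put the median of all tested genes at -1.06 on the log2 scale.

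Of 13 regulators of epithelial and junction genes, 4 were lower in test tumors with an unadjusted p under 0.05, against 5.26% of all tested genes. All 4 are transcription factors known as repressors of epithelial genes or from mesenchymal cells, and for each the groups overlapped. Of the same kinds, *Snai2* and *Twist2* had log2 fold changes of -0.44 and 0.49 (unadjusted p = 0.454 and 0.498 by edgeR). The only regulator without overlap was *Ovol2*, higher in test tumors (1.0 on the log2 scale, unadjusted p = 0.0699 by edgeR). *Snai1* was at 63.3, 5.62 and 21.7 CPM in control and 3.23, 9.28 and 9.76 CPM in test replicates. *Zeb1* was at 68.7, 6.27 and 42.4 CPM in control and 11.1, 13.3 and 8.38 CPM in test replicates. *Zeb2* and *Twist1* had log2 fold changes of -1.48 and -2.45 (unadjusted p = 0.0214 and 0.027 by edgeR). For all 4, control replicate 2 lay within or below the range of the test tumors and far below the other control tumors. Without that tumor the log2 fold changes of *Snai1*, *Zeb1*, *Zeb2* and *Twist1* were -2.51, -2.35, -1.89 and -2.99 (edgeR adjusted p 0.122, 0.0354, 0.0435 and 0.0419), without overlap. Leaving out the control tumor most like the test tumors widens such differences, so these values follow in part from that choice. In that fit 9.06% of all tested genes were lower with an unadjusted p under 0.05. The share of all genes lower without overlap was not computed. The 2 regulators with the highest mean FPKM were *Esrp1*, an epithelial splicing factor, and *Grhl1*, an epithelial transcription factor, with log2 fold changes of 0.45 and -0.01 (unadjusted p = 0.328 and 0.975).

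**Figure D4:**
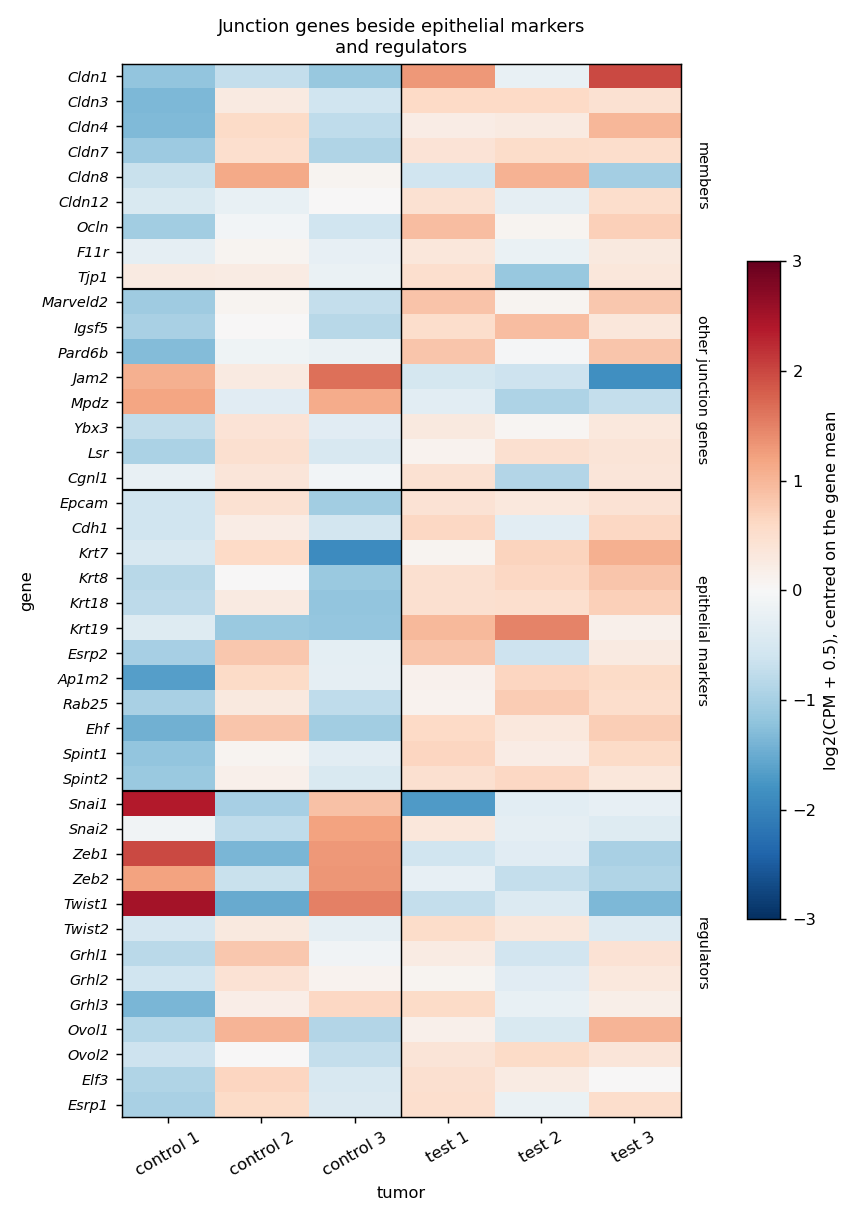
Heat map of log2(CPM + 0.5), centered on each gene's mean over the 6 tumors (color scale from -3 to 3), for the 9 members, 8 other junction genes, 12 epithelial markers and 13 regulators of epithelial and junction genes. The column of the control tumor numbered 2 is like the test columns for the sealing claudins, most epithelial markers and *Snai1*, *Zeb1*, *Zeb2* and *Twist1*, for which it lies between 2.49 and 16.2 CPM.

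Markers of other cell types also differed between tumors. The 8 skeletal muscle markers all had higher means in test tumors, 1 (*Actn3*) with an unadjusted p under 0.05, and summed to 5.75 to 189.1 CPM in control and 104.5 to 974.6 CPM in test tumors. Without control replicate 2 all 8 were higher with an unadjusted p under 0.05, against 5.2% of all tested genes. With all tumors 3.15% of all tested genes were higher and 5.26% lower at that threshold. Of 6 adipocyte markers the 2 tested (*Adipoq* and *Fabp4*) were higher at that threshold, and the list summed to 12.9 to 24.7 CPM in control and 15.0 to 249.1 CPM in test tumors. The 6 tested leukocyte markers had lower means in test tumors, *Itgam* at that threshold, with sums of 137.9 to 291.1 CPM in control and 114.5 to 168.1 CPM in test tumors.

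Fibroblast markers (8 tested, 5 higher) summed to 2064.4 to 3377.7 CPM in control and 1361.2 to 5531.7 CPM in test tumors, and endothelial markers (8 tested, 6 higher) to 107.3 to 155.9 and 137.1 to 161.1 CPM, none at that threshold. The fibroblast sum joins genes of opposite direction. By mean FPKM the highest were *Vim*, with a log2 fold change of -1.33, and *Col1a1*, with 0.45 (unadjusted p = 0.0833 and 0.645 by edgeR). *Vim* was at 1052.3, 224.2 and 1348.0 CPM in control and 179.7, 526.8 and 338.7 CPM in test replicates. Of 7 tested keratinocyte and basal markers 4 were higher and *Trp63* was lower at that threshold. The sums were 194.0 to 641.3 CPM in control and 280.5 to 390.3 CPM in test tumors. *Krt1* was listed at 0 in 1 tumor of each group. *Krt1*, *Krt10* and *Dsg3* were highest in test replicate 3, at 7.64, 5.09 and 11.7 CPM. In the other tumors they reached at most 0.488, 3.05 and 2.66 CPM. The other markers of this list were highest in other tumors. The part of these cell types in the levels of the 9 members was not tested.

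For each member the genes with the most similar pattern were found by the root mean square difference of centered log2 levels over the 6 tumors. *Cldn1* was nearest to *Megf6* (0.24), and *Trim6* was at 0.49. *Cldn3* was nearest to *Smagp*, *Cd14* and the protease inhibitor *Spint2* (0.14 to 0.15), and *Cldn7* to *Tmem268* (0.09), *Rffl* and *Cd14* (0.17 each). *Cldn4* was nearest to *Idi1*, *Dqx1* and *Bdh1* (0.19 to 0.21), and *Cldn8* to *Cd177* (0.11), *Cda* and *Adck5*. After *Marveld2*, *Ocln* was nearest to *Tmprss13* (0.10) and *Liph* (0.16), genes of a membrane protease and a lipase. *Cldn12* was nearest to *Hip1r*, *Pex26* and *Pcsk7* (0.09 to 0.12), *Tjp1* to *Lmtk2*, *Phactr4* and *Trappc8* (0.08 to 0.10), and *F11r* to *Tspan14*, *Socs6* and *Abhd13* (0.05 to 0.07). Small differences are easier to reach for genes that vary little, such as *F11r*, so these distances are not compared between members.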

How the data were processed

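Tumor RNA libraries were sequenced by the Beijing Genomics Institute. Per the labels, Bowtie, BWA, RSEM and the mm10 genome are named in the submitters' processing notes, without their roles or versions. Per tumor, the authors deposited expected counts per gene (estimated reads without normalization, which may split reads shared by related genes such as *Cldn3* and *Cldn4*) and FPKM values, scaled by the authors to gene length and depth. Between 79.0% and 80.1% of the expected counts were whole. A gene not listed in a tumor was set to 0. Of 18460 NCBI Gene identifiers, 18400 were matched to RefSeq directly and 13 through a transcript. The total expected count was 8373390 to 9449565 per tumor. The biological coefficient of variation between tumors of a group was 0.434, and the lowest count of a member in a tumor was 94.

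Rounded expected counts entered edgeR 4.0.16 under R 4.3.3 (filterByExpr, TMM, quasi-likelihood test, 3 test against 3 control tumors, no covariate, Benjamini-Hochberg adjustment over all 13706 tested genes). The study's methods name several procedures for differential expression and not which was used here. CPM values use TMM library sizes. Permutation tests were exact and two-sided. Alternatives were DESeq2 1.42.0, RLE scaling, other filters, limma 3.58.1 on log2(FPKM + 1) and log2(FPKM + 0.1), the replicate number as a block, removal of the trend with gene length, scaling to the 12 epithelial markers, and leaving out each tumor. Counts of genes without overlap in the fits that leave out a tumor, shares of all genes under some alternatives, and the lists and ratios without control replicate 2, were chosen after seeing the data.

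The members and lists were chosen with earlier results of these data known. Genes named are the members; of the other junction genes those with an unadjusted p under 0.05, the 5 with the smallest p and the 3 with the highest mean FPKM; the 3 nearest patterns of each member, of which 1 is not reported here; and of regulators and marker lists those with an unadjusted p under 0.05 and the 2 highest by mean FPKM. *Cd3e*, *Cd4*, *Krt1*, *Krt10*, *Dsg3*, *Snai2*, *Twist2*, *Ovol2* and the other claudins are not covered by this rule and were picked after seeing their values. Promoter sequences are from RefSeq (GRCm38.p6), using the start farthest upstream of those available where a gene has several. For *Tjp1* the only start available, at 65371244 of chromosome 7, lies inside the gene (65296165 to 65527850, minus strand). Protein sequences were not used here.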

Additional observations from a re-analysis of the deposited data

How the results depend on the processing

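At a false discovery rate of 0.05, DESeq2 called 313 genes and 1 member (*Cldn1*), limma on log2(FPKM + 1) called 1 gene (*Gpx2*, named after its value was seen), and scaling to the epithelial markers gave 825 genes. Leaving out 1 tumor gave 0 to 182 genes, with 182 without control replicate 2. The 2 members with an unadjusted p under 0.05 became 3 with DESeq2, no filter on low counts, 10 counts in every tumor and both limma fits (*Cldn3* joining, unadjusted p 0.0285 to 0.047), 4 with the replicate block, 1 with scaling to the epithelial markers, and 2 to 5 when 1 tumor was left out, 5 without control replicate 2. Members lower in test tumors, 2 with all tumors, became 1 with the length trend removed, 5 with scaling to the epithelial markers, and 0 to 2 when 1 tumor was left out, 0 without control replicate 2 and 1 without control replicate 1, test replicate 2 or test replicate 3. Members without overlap, 3 with all tumors, became 3 to 6, with 6 without control replicate 2 or test replicate 2 (16.2% and 11.4% of all tested genes). Of the other junction genes, 16 were lower with all tumors and 33 with scaling to the epithelial markers. Those with an unadjusted p under 0.05 were 5 with all tumors, 14 with that scaling and 3 to 13 when 1 tumor was left out, 13 without control replicate 2 and 3 without test replicate 1. Of all tested genes, 1153 had an unadjusted p under 0.05 by edgeR with all tumors and 1386 by DESeq2. Without control replicate 2, 5.2% were higher and 9.06% lower at that threshold by edgeR. For the other alternatives these shares are not given. Changes in the counts at that threshold can therefore not be read as changes in the junction genes alone. The cause of the differences between settings was not tested.

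Directions turned for *Tjp1*, at 0.12 with the length trend removed and -0.33 to 0.31 when 1 tumor was left out (0.03 without control replicate 1, 0.02 without control replicate 2 and 0.31 without test replicate 2). *Cldn8* ran from -1.21 to 0.35 when 1 tumor was left out, with 0.35 without control replicate 2 and 0.08 without test replicate 3. With scaling to the epithelial markers *Cldn7* was at -0.01, *Cldn12* at -0.59 and *F11r* at -0.75, below 0 as were 94.8% of all tested genes under that scaling, and all above their median of -1.06. *Cldn1* kept its direction and an unadjusted p under 0.05 in all 15 alternatives, and *Ocln* in 14 of 15, the exception being scaling to the epithelial markers. The replicate block gave *Cldn3* 1.11 (unadjusted p = 0.0313) and *Cldn7* 1.00 (unadjusted p = 0.0406) by edgeR and no member an adjusted p under 0.05. The numbers did not pair the tumors, which came from different mice: tumors with the same number had correlations of their deviations from the group means of -0.025, 0.121 and -0.137.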
